A study of Homo sapiens with 12 samples.

Results

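The pro-apoptotic members of the BCL2 family were examined as 10 listed genes out of 20136 protein-coding genes with an annotated 5′ end on GRCh37. They comprise the 2 effectors BAX and BAK1 and the 8 BH3-only genes BID, BAD, BIK, BBC3 (PUMA), PMAIP1 (NOXA), BCL2L11 (BIM), HRK and BMF. The genes were listed by name, for the function of their proteins, with earlier results of these data known. At each gene, the peaks of H3K4me3 (trimethylation of lysine 4 of histone H3) were counted by library within 1, 2.5 and 10 kb of the most 5′ annotated end and of any annotated transcript start, and compared with IgG, an antibody with no histone target.

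H3K4me3 is a chromatin mark placed around the starts of active or poised genes. BAX and BAK1 proteins open pores in the outer mitochondrial membrane and release cytochrome c, the step that commits a cell to intrinsic apoptosis. BH3-only proteins act above them, either by activating the effectors directly or by occupying anti-apoptotic relatives such as Bcl-xL, the protein that is overexpressed in one of the cell lines here. Several of them, such as PMAIP1 and BBC3, are known to be induced by cellular stress.

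Libraries were made by CUT&RUN, in which antibody-guided nuclease cuts out the chromatin bound by the antibody, from BON1, a line grown from a human pancreatic neuroendocrine tumor. The control group is the line named BON1/TGL/pQ and the other is BON1/TGL/HA-Bcl-xL, which overexpresses HA-tagged Bcl-xL. Both groups thus carry what the labels call TGL, and both were grown in medium with puromycin. Each condition used 500000 cells. The lists analysed were 3 control H3K4me3, 2 HA-Bcl-xL H3K4me3 (replicates 2 and 3), 3 control IgG and 3 HA-Bcl-xL IgG libraries, while replicate 1 of the HA-Bcl-xL H3K4me3 group was not analysed here. The labels do not say whether replicates were separate cultures or whether each line is a single clone, so p-values measure only the spread between these libraries, which may be technical.

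The deposited H3K4me3 lists held 10247 to 17711 peaks each and the IgG lists 244 to 2113. Among the control H3K4me3 libraries replicate 1 had the longest list and replicate 3 the shortest, and the HA-Bcl-xL lists, with 15497 and 16379 peaks, fell between the control extremes. The median peak in an H3K4me3 list was 112 to 128 bp wide and had 9 to 12 fragments at its summit, against 3 to 6 fragments in IgG lists. The number of fragments was solved from the deposited fold enrichment and p-value of each peak, and no peak that could be solved, 95.9% to 99.97% of each list, had fewer than 3 fragments. At this depth the lack of a peak says that none was detectable, not that the mark is absent. Of 9 neuroendocrine markers, CHGB, SCG2 and SCG3 were marked less than 1 kb from the 5′ end in all 5 H3K4me3 libraries, 6 had a peak there in at least 1, and INSM1, ENO2 and NKX2-2 had none. Within 2.5 kb, INSM1 was marked in all 5 and ENO2 in 1. The 5 mesenchymal, 4 leukocyte, 4 acinar and 2 matched endothelial markers had none within 1 kb in any library. Within 2.5 kb, the mesenchymal markers VIM, ZEB1 and COL1A1 had a peak in 1 library each, and within 10 kb 2 of the leukocyte markers had one in at least 1 library.

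The sequences under some of the peaks that recurred between libraries are given first, each read 5′ to 3′ along the gene from GRCh37. For PMAIP1 the stretch runs from +976, where the peak of HA-Bcl-xL replicate 3 starts, to +1262, where that of control replicate 3 ends. For BMF it is 300 of the 311 bases of the peak of control replicate 1, from the end nearest the gene. For BAX it is the whole span of its 2 peaks, which lie in intron 1; the peaks of BAK1 and BAD reach into the 5′ UTR and are not printed.
PMAIP1, chr18:57568204-57568490, plus strand, capitals mark the 48 bases under a peak in all 5 H3K4me3 libraries: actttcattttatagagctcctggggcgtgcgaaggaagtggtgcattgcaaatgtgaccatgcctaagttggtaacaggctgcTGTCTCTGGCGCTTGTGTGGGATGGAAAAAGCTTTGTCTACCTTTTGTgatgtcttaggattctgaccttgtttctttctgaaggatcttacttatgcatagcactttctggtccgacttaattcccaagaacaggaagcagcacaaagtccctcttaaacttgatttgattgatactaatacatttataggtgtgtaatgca
BMF, chr15:40401097-40401396, minus strand, capitals mark the 120 bases of the peak of HA-Bcl-xL replicate 3: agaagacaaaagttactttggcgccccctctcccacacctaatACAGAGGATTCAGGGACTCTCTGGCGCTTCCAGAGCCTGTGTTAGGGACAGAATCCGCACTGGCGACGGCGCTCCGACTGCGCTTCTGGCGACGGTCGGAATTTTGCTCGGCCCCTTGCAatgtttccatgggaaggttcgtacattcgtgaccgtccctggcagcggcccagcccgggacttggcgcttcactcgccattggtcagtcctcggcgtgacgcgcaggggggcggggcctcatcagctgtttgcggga
BAX, chr19:49458463-49458588, plus strand, capitals mark the 64 bases shared by the peaks of control replicates 1 and 3: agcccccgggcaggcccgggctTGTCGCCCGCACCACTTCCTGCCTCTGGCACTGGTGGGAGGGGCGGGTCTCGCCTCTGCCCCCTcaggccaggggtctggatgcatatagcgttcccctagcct
The 3 stretches differed in composition. The PMAIP1 stretch, inside the gene, had 42.2% GC and 4 CpG in 287 bases, while the BMF stretch had 61.3% GC and 25 CpG in 300 bases. The BAX stretch had 70.6% GC and 7 CpG in 126 bases.

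The question the design poses is whether overexpression of Bcl-xL goes with a change in H3K4me3. Within 1 kb of the 5′ end, 5 of the 10 genes had a peak in at least 1 H3K4me3 library (BAX, BAK1, BAD, PMAIP1 and BMF), and only BMF had one in all 5. BID, BIK, BBC3, BCL2L11 and HRK had none. Control replicate 1 had peaks at 5 of the genes, control replicate 2 at 3 (BAD, PMAIP1, BMF) and control replicate 3 at 3 (BAX, BAK1, BMF). Both HA-Bcl-xL libraries had peaks at the same 3 genes, BAK1, PMAIP1 and BMF.

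The mean was 3.67 ± 1.15 genes (SD, n = 3) in control and 3 ± 0 (SD, n = 2) in HA-Bcl-xL libraries. The difference of -0.667 genes was smaller than the pooled SD of 0.943. Over all protein-coding genes the share with a peak was 33.6% ± 6.20 (SD, n = 3) in control and 37.3% ± 1.16 (SD, n = 2) in HA-Bcl-xL libraries. Of all genes, 48.2% had a peak in at least 1 library and 21.3% in all 5, against 5 of 10 and 1 of 10 here.

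No pro-apoptotic gene had a peak in every library of one line and none of the other. Across all genes this rule called 170 genes for HA-Bcl-xL alone (0.844%) and 50 for control alone (0.248%), so that 0 of 10 lies near the background. Within 2.5 kb it called 0.824% and 0.248% of all genes and within 10 kb 0.904% and 0.243%, again with 0 of the 10. BAX and BAD came closest: each had a peak in 2 of 3 control libraries and in 0 of 2 HA-Bcl-xL libraries. BAD then counted as present in control alone when control replicate 3 was left out, and BAX when control replicate 2 was left out. With those libraries left out, the rule called 170 and 130 of the 20136 genes for control alone, in that order. The same pattern over the 5 libraries as BAX was seen in 80 genes (0.397%), and the same as BAD in 120 (0.596%).

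**Figure D1:**
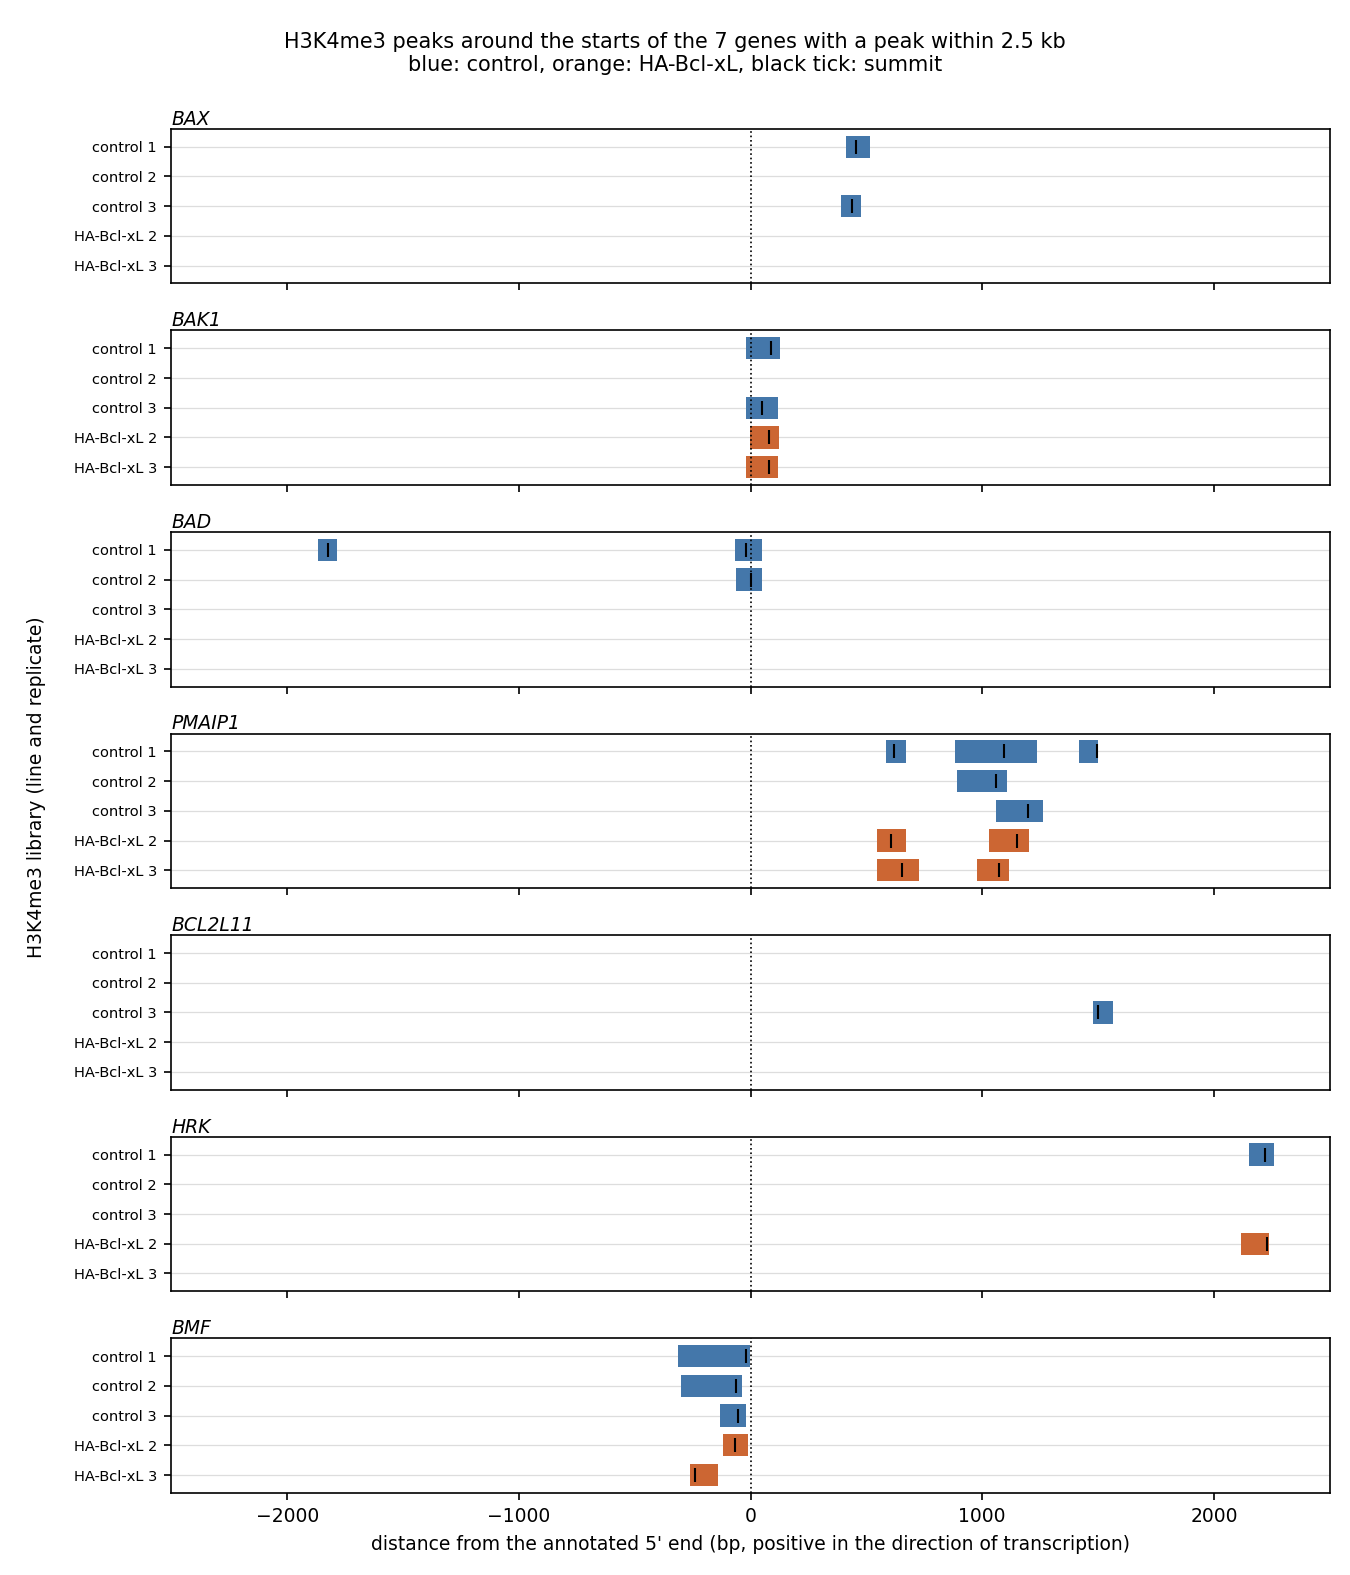
Position of each H3K4me3 peak up to 2.5 kb from the annotated 5′ end (x axis, bp in the direction of transcription) for the 7 genes that have one, with 1 row per library, control in blue, HA-Bcl-xL in orange and a black tick at the summit. BAK1 peaks and 1 BAD peak in each of 2 control libraries cover the start, BMF peaks and a further BAD peak lie upstream of it, and those of BAX, PMAIP1, BCL2L11 and HRK lie downstream.

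BAX, the effector that moves from the cytosol to mitochondria, has its 5′ end at 49458072 on the plus strand of chromosome 19. The bases under peaks within 2.5 kb numbered 104 in control replicate 1, 0 in control replicate 2, 86 in control replicate 3, and 0 in both HA-Bcl-xL libraries. The groups overlapped at 0, because control replicate 2 lacked the peak as well, and the exact permutation test gave p = 0.6 (two-sided, n = 3 and 2), where the smallest p that the 3 and 2 libraries allow is 0.2. Both peaks lie in intron 1, at +413 to +516 and +391 to +476 from the 5′ end, in a stretch that is also exonic in a retained-intron transcript. They rested on only 5 and 6 fragments and stood at the 23.8th and 59.8th percentile of their own lists by −log10 p. The 64 bases that they share are in capitals above.

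BAK1, the effector that resides in the mitochondrial outer membrane, has its 5′ end at 33548070 on the minus strand of chromosome 6. It had 147 bases under peaks in control replicate 1, 0 in control replicate 2, 139 in control replicate 3, 124 in HA-Bcl-xL replicate 2 and 139 in HA-Bcl-xL replicate 3. All but control replicate 2 were thus alike, with means of 95.3 ± 82.7 bp (SD, n = 3) in control and 131.5 ± 10.6 bp (SD, n = 2) in HA-Bcl-xL (exact permutation p = 1, two-sided). The peaks span the 5′ end, from -19 to +127, and take in the 5′ UTR. They had 14, 6, 15 and 15 fragments in those 4 libraries, in that order, and stood at percentiles 84.5, 40.6, 91.0 and 88.6, the highest being the highest rank of any peak of the 10 genes.

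Within 10 kb BAK1 also had a peak about 9 kb downstream of its 5′ end, beyond the end of the gene, in control replicate 2 and both HA-Bcl-xL libraries. The bases under peaks within 10 kb were then 128 ± 25.7 bp (SD, n = 3) in control and 281.5 ± 60.1 bp (SD, n = 2) in HA-Bcl-xL. These groups did not overlap, and the exact permutation test gave p = 0.2, the smallest possible. HA-Bcl-xL lay wholly above control in this window for 5.67% of all genes and below it for 2.29%, and for 1 and 0 of the 10 genes. Within 2.5 kb the background shares were 5.13% and 2.14%, and no pro-apoptotic gene was separated in either direction.

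PMAIP1 encodes NOXA, the BH3-only protein that binds MCL1, and has its 5′ end at 57567228 on the plus strand of chromosome 18. Within 2.5 kb it had the most bases under peaks of the 10 genes on average, summed over up to 3 peaks (312 ± 128 bp, SD, n = 5), although within 1 kb it had 128 bp and BMF 183 bp. The values within 2.5 kb were 523, 215 and 203 bases in control replicates 1, 2 and 3, then 299 and 318 bases in replicates 2 and 3 of HA-Bcl-xL. The HA-Bcl-xL values lay between those of control, with means of 313.7 ± 181 bp (SD, n = 3) for control and 308.5 ± 13.4 bp (SD, n = 2) for HA-Bcl-xL (exact permutation p = 1, two-sided). In a limma fit across the 5151 genes with a peak within 2.5 kb in every library, its difference was 0.0020 ± 0.423 on the log2 scale (SE) with an adjusted p of 1.0 (limma, Benjamini-Hochberg). All 9 peaks lie in intron 1, between +546 and +1497, and none reaches the 5′ end. The 48 bases under a peak in all 5 libraries are at +1060 to +1107. A further peak, starting at +546 to +585, was called in control replicate 1 and both HA-Bcl-xL libraries. The peaks had 9 to 14 fragments and stood at percentiles 17.2 to 79.7.

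BMF, a BH3-only protein tied to the cytoskeleton in healthy cells, has its 5′ end at 40401093 on the minus strand of chromosome 15. It had 311, 264 and 110 bases under peaks in control replicates 1, 2 and 3, then 112 and 120 in replicates 2 and 3 of HA-Bcl-xL. Control replicates 1 and 2 were above both HA-Bcl-xL libraries, and control replicate 3 was just below them. The means were 228 ± 105 bp (SD, n = 3) and 116 ± 5.66 bp (SD, n = 2), with an exact permutation p of 0.6 (two-sided). In the limma fit the difference was -0.96 ± 0.433 (SE) on the log2 scale, with an unadjusted p of 0.0386 and an adjusted p of 0.931 (limma, Benjamini-Hochberg), so it did not pass.

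Every BMF peak lies upstream of the 5′ end, between -314 and -4. The summits were at -21, -63 and -55 in control replicates 1, 2 and 3, at -69 in HA-Bcl-xL replicate 2 and at -239 in HA-Bcl-xL replicate 3. The last peak, in capitals above, overlaps those of control replicates 1 and 2 but not those of control replicate 3 or HA-Bcl-xL replicate 2, so that no base was under a peak in all 5 libraries. Fragments at the summit numbered 12, 7, 5, 11 and 11 in the same order of libraries, and the percentiles were 71.5, 28.2, 15.8, 71.6 and 68.9.

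BAD, which links growth factor signalling to Bcl-xL and BCL2 through its phosphorylation, has its 5′ end at 64052176 on the minus strand of chromosome 11. It had 199 bases under peaks in control replicate 1, 112 in control replicate 2, and 0 in control replicate 3 and both HA-Bcl-xL libraries. Control replicate 3 thus matched the HA-Bcl-xL libraries, and the exact permutation p was 0.6 (two-sided, n = 3 and 2). The peak of both control libraries spans the 5′ end, from -65 to +50, with 13 and 10 fragments at percentiles 80.8 and 73.7. Control replicate 1 had a further peak of 83 bp upstream, at -1868 to -1786. An internal transcript start of BAD lies 12836 bp downstream of the 5′ end, and all 5 libraries had peaks 1312 to 1918 bp from it. The gene start nearest to these peaks is that of GPR137, but they count for BAD within 2.5 kb of any transcript start, where it was marked in all 5.

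HRK, a BH3-only gene known chiefly from neurons, has its 5′ end at 117319246 on the minus strand of chromosome 12. It had 107 bases under a peak in control replicate 1, 124 in HA-Bcl-xL replicate 2 and 0 in the other 3 libraries. Its peaks, at +2151 to +2257 and +2115 to +2238 in intron 1, lie 327 and 291 bp from another annotated transcript start of HRK. They had 11 and 6 fragments, and the second was the weakest of all peaks of the 10 genes, at percentile 3.35 of its list. BCL2L11, which encodes BIM, an activator that engages all the anti-apoptotic proteins, had 86 bases in control replicate 3 and 0 in the other 4. That peak, on 8 fragments, spans the start of the canonical transcript, which lies 1536 bp downstream of the 5′ end at position 111876955 of chromosome 2. HA-Bcl-xL replicate 3 had another BCL2L11 peak at +3834 to +3923, which does not overlap the first. It lies 445 bp from an annotated transcript start.

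BID, which is cut by caspase-8 to join the death receptor and mitochondrial pathways, BIK, which acts at the endoplasmic reticulum, and BBC3, which encodes PUMA, were unmarked by H3K4me3 up to 10 kb from the 5′ end and from any transcript start in all 5 libraries. Their nearest peaks were 74.1 to 135 kb away for BID (5′ end at 18257536 of chromosome 22, minus strand), 32.1 to 77.0 kb for BIK (43506756 of chromosome 22, plus strand) and 11.7 to 101 kb for BBC3 (47736023 of chromosome 19, minus strand). Within 10 kb of the 5′ end, 39.5% of all genes likewise lacked a peak in all 5 libraries.

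**Figure D2:**
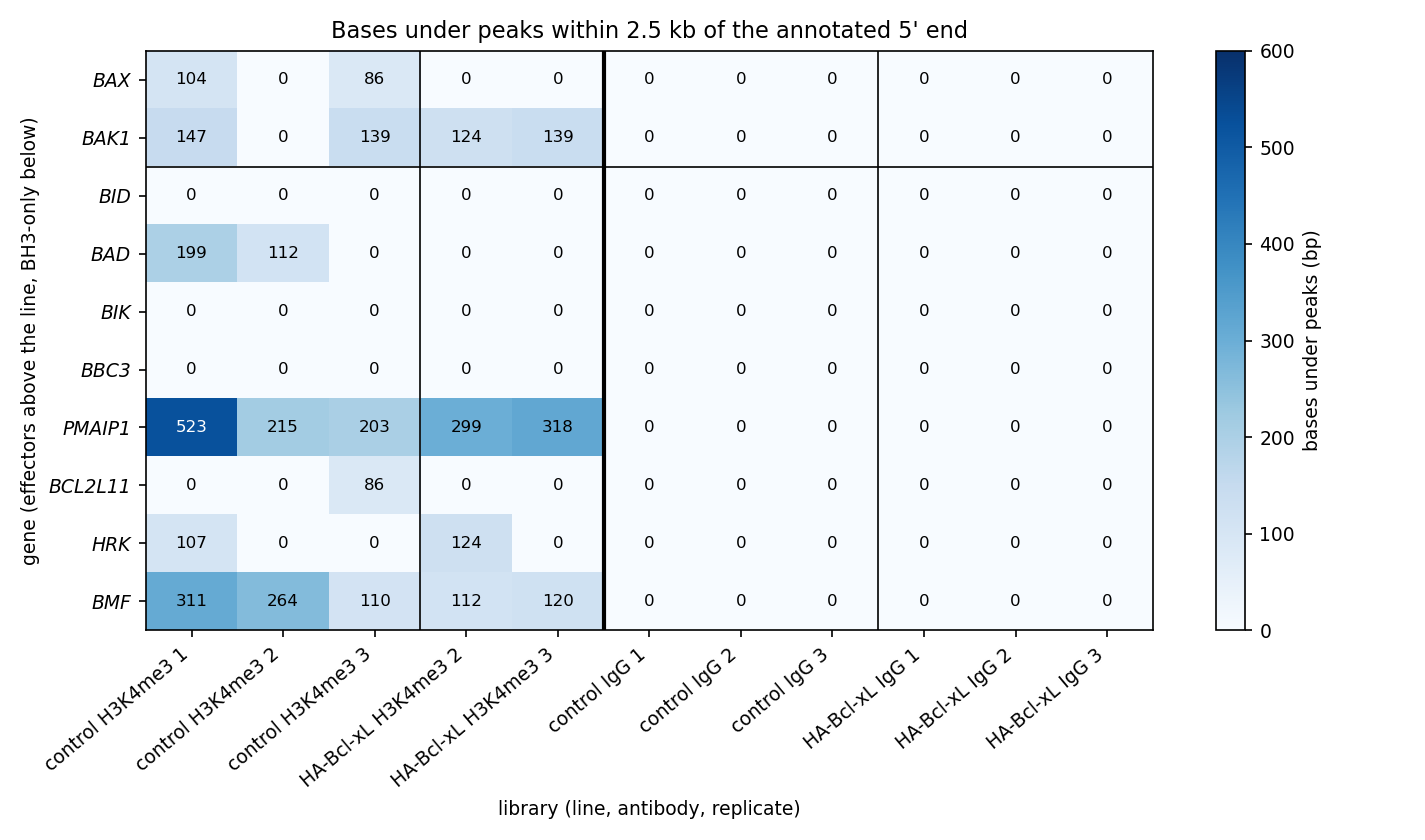
Bases under peaks within 2.5 kb of the annotated 5′ end for each gene (rows) in each library (columns); darker blue stands for more bases. PMAIP1 and BMF are above 0 in all 5 H3K4me3 libraries, BID, BIK and BBC3 are at 0 throughout, and every IgG value is 0.

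The IgG libraries held no peak within 10 kb of the 5′ end of any of the 10 genes. Of all genes, only 4.47% had an IgG peak in that window in at least 1 library, so 0 of 10 lies near the background. The nearest IgG peak was 20.2 kb from a 5′ end, at HRK. Within 10 kb of any transcript start, only BAD had an IgG peak, in control IgG replicate 3, against 9.06% of all genes. For PMAIP1 and BMF the H3K4me3 lengths were above the IgG lengths of 0 in all libraries of each line, as having a peak in every H3K4me3 library and none in IgG fixes, so no test is given. A peak in all 5 H3K4me3 libraries and none in IgG, within 2.5 kb, was found for 25.2% of all genes and for 2 of the 10. Within 1 kb the share was 21.1%, and 1 of the 10 genes met it, and within 10 kb it was 28.2%, with 3 of the 10 genes. IgG peaks within 2.5 kb of a 5′ end were at 0.442% of all genes in a control library and 0.0613% in an HA-Bcl-xL library, on average.

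The window set how many of the genes counted as marked. Within 1 kb of any transcript start, HRK and BCL2L11 also had a peak, so that 7 of 10 had one in at least 1 library (56.6% of all genes). BMF alone had one in all 5 (26.5% of all genes). The means there were 4.33 ± 1.53 genes (SD, n = 3) in control and 4 ± 0 (SD, n = 2) in HA-Bcl-xL, and over all genes the shares were 40.7% and 44.9%. Within 2.5 kb of the 5′ end, 7 of 10 had a peak in at least 1 library (53.5% of all genes) and 2 in all 5 (25.6%), with means of 4.67 ± 1.53 genes (SD, n = 3) in control and 3.5 ± 0.707 (SD, n = 2) in HA-Bcl-xL. Over all genes the shares in that window were 38.9% in control and 42.6% in HA-Bcl-xL libraries. Within 10 kb, BAK1 joined PMAIP1 and BMF, so that 3 of 10 were marked in all 5 (29.7% of all genes). The means there were 5 ± 1 genes in control (SD, n = 3, from 4 to 6) and 4 ± 0 in HA-Bcl-xL (SD, n = 2), a difference of -1 with both groups reaching 4, while over all genes the shares were 44.1% and 48.5%. Within 10 kb of any transcript start, BAD and BAX joined them, the latter through peaks at the start of its neighbour FTL, which made 5 of 10 (33.0% of all genes). In that window control had 5.67 ± 0.577 genes (SD, n = 3) and HA-Bcl-xL 6 ± 0 (SD, n = 2), and over all genes the shares were 48.1% in control and 52.7% in HA-Bcl-xL libraries.

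**Figure D3:**
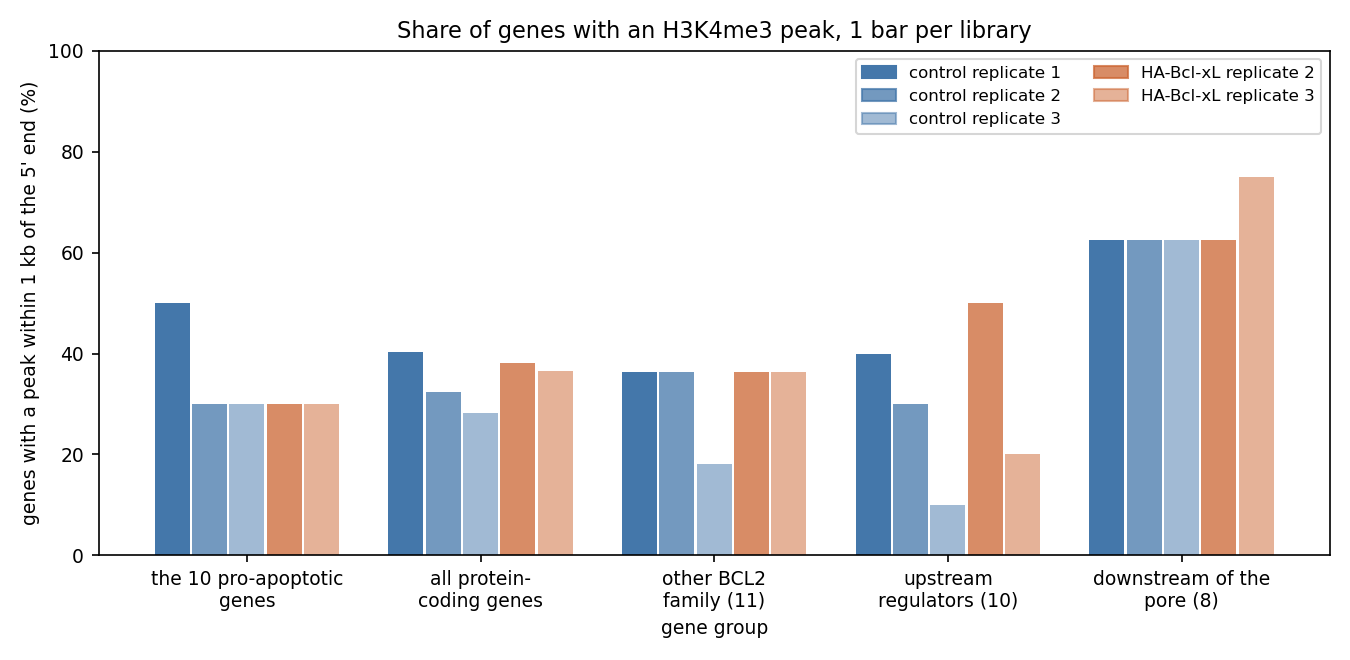
Share of genes marked by H3K4me3 less than 1 kb from the 5′ end (y axis, %), 1 bar per library, for the 10 pro-apoptotic genes, all 20136 protein-coding genes and 3 lists of related genes. The pro-apoptotic genes stand at 50% in control replicate 1 and 30% in the other 4 libraries.

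The 26 peaks within 2.5 kb of the 10 genes were 80 to 356 bp wide, with 5 to 15 fragments at the summit. Their median percentile by −log10 p was 59.0, against medians of 54.3 to 55.8 for all promoter peaks in the 5 lists. The percentiles spread widely within a gene, from 40.6 to 91.0 at BAK1, from 15.8 to 71.6 at BMF and from 3.35 to 58.2 at HRK. Counting only peaks within 1 kb of the 5′ end, the 10 genes had 22 pairs of overlapping peaks between libraries. At least 1 boundary fell on the same base in 4 of these pairs (3 at BAK1, 1 at BAD), against 17.4% of overlapping pairs over all peaks.

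**Figure D4:**
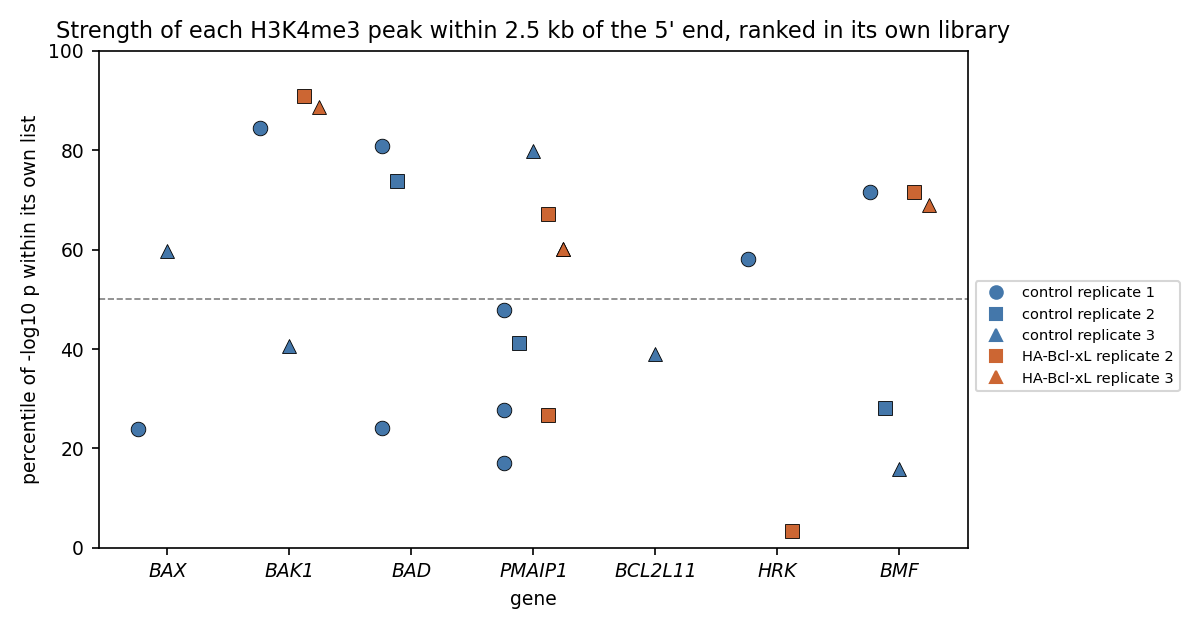
Rank of each H3K4me3 peak up to 2.5 kb from the 5′ end, as the percentile of its −log10 p among all peaks of its own library (y axis), by gene, with color for the line and shape for the replicate; the dashed line is the 50th percentile, and 2 peaks of PMAIP1 in HA-Bcl-xL replicate 3 share 1 point. BAK1 reaches the highest rank, 91.0, and HRK the lowest, 3.35.

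Fitted over the genes with a peak in at least 1 library, as log2 of the length plus 50 bp, 7 of the 10 genes could be tested among 10764, and none passed (limma). BAX, BAD and BCL2L11 entered that fit through control libraries alone, so the size of their differences is set by the 50 bp and is not given. By exact permutation within 2.5 kb, 7 genes were tested, and none reached the smallest possible p of 0.2. In the limma fit over 5151 genes, 0 genes passed (0%), 269 had an unadjusted p under 0.05, and the smallest adjusted p was 0.733 (limma).

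The promoters themselves were compared by base composition and short motifs. Within 1 kb on either side of the 5′ end, GC content ran from 50.2% at BBC3 to 64.7% at BAD and BIK, against a median of 55.0% over all genes. PMAIP1 had 58.3%, BMF 59.2%, BAX 57.6% and BAK1 56.4%. Around the canonical start, BBC3 had 68.0% and BCL2L11 67.2%, the highest of the 10, so the order depends on the start used. The ratio of observed to expected CpG at the 5′ end was 0.270 at BAK1, 0.559 at BMF, 0.578 at BAD, 0.591 at BAX and 0.786 at PMAIP1, the genes with a peak within 1 kb. In the genes without one it was 0.373 at BBC3, 0.661 at BID, 0.819 at HRK, 0.828 at BCL2L11 and 0.830 at BIK, so 3 of those 5 were above every gene with a peak. At the canonical start BBC3 had 0.791 and BCL2L11 0.926, so this count also depends on the start used. A peak of control replicate 3 spans the canonical start of BCL2L11, so at that start BCL2L11 is a gene with a peak. The share of all genes with a peak in all 5 libraries was also taken by deciles of GC content around the 5′ end. It rose from 2.43% in the lowest to 27.9% in the third, which holds BBC3, and 34.9% in the fourth. It was 29.0% in the sixth, which holds BAK1, 25.8% in the seventh (BAX, PMAIP1 and BMF) and 23.3% in the eighth (BCL2L11 and HRK). It then fell to 16.7% in the ninth, which holds BID, BAD and BIK, and 9.84% in the tenth. The GC content of BBC3 and BCL2L11 around the canonical start would fall in the range of the tenth.

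From 250 bases before to 50 after the 5′ end, on either strand, a GC box (GGGCGG) was found in 8 of the 10 promoters, all but BID and BBC3, and in 52.2% of all promoters. A CCAAT box was found in 6 and in 35.8% of all. TATAAA, present in 10.9% of all promoters, was found in none of the 10. The E-box CACGTG was present at BAX and BBC3 (8.33% of all), GTAAACA, the letters of a FOXO site, at BIK (2.81%), and the AP-1 letters TGANTCA at BBC3 (6.37%). GC boxes were shared by genes with and without peaks.

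Other genes of the pathway were read the same way. Among 11 other BCL2 family genes, BCL2L13 had a peak within 1 kb in all 5 libraries and 5 had one in at least 1. Within 2.5 kb, MCL1, BCL2 and BCL2L1 (the gene of Bcl-xL itself) were also marked in all 5, while the pore-forming relative BOK had no peak in that window but was marked in all 5 within 1 kb of any transcript start. Among 10 upstream regulators, CASP8, the gene of the caspase that cuts BID, had a peak in all 5 libraries within 1 kb, and 5 had one in at least 1. The regulators FOXO1 and MAPK8 had none, and FOXO3, which activates BCL2L11, was marked in 2 control libraries and 1 HA-Bcl-xL library within 1 kb and in all 5 within 2.5 kb.

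Among 8 genes of the steps around and after pore opening, CASP9, CYCS (cytochrome c), HTRA2 and VDAC1 had a peak in all 5 libraries and 6 had one in at least 1 within 1 kb, where all genes stand at 21.3% and 48.2%. VDAC2 and DIABLO had none in that window, but within 2.5 kb VDAC2 was marked in all 5 libraries and DIABLO in 1 control and 2 HA-Bcl-xL libraries. None of the 3 lists held a gene with a peak in every library of one line and none of the other, under the rule that called 0.844% and 0.248% of all genes.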

How the data were processed

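Peaks of each library were deposited by the authors as lists with a score, a fold enrichment at the summit, −log10 p-value and −log10 q-value. Per the submitters' processing notes, bcl2fastq 2.20, Trimmomatic 0.36, Bowtie2 2.2.9, MACS2 2.1.1 and deepTools 3.5.1 were used with hg19; whether IgG entered the peak calling is not given in the sources used here. The deposited lists hold 1 library each, so peaks were compared by library, and the score, which is 10 times −log10 q cut to a whole number, was not used further. Groups and replicate numbers came from the sample titles.

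A peak counted with at least 1 bp in a window around 5′ ends from GENCODE release 44 mapped to GRCh37. Fragments at each summit were solved from the deposited fold and p, and reproduced both within 0.001 for 95.9% to 99.97% of peaks. Lengths under peaks were fitted with limma 3.58.1 in R 4.3.3 on the log2 scale, centred on each library's median, with an adjusted p threshold of 0.05, after a test on simulated data. Single genes were tested by exact permutation (scipy 1.17.1). No 2 lists shared more than 1.88% of peak coordinates. All 10 genes are named, and other genes come from fixed lists, of which some members are not reported here; members and lists were chosen with earlier results of these data known. GPR137 and FTL, and the BAX sequence, were chosen after their values were seen. Alternatives changed the window, start, q threshold, list length, IgG overlap, centring, pseudocount, replicate block and libraries.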

Additional observations from a re-analysis of the deposited data

How the results depend on the processing

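The number of pro-apoptotic genes with a peak in all 5 H3K4me3 libraries, 1 within 1 kb of the 5′ end, was 2 within 2.5 kb and 3 within 10 kb, and, in windows added after seeing the data, 3 within 2.5 kb and 5 within 10 kb of any transcript start. It was 0 with −log10 q of at least 5, and 1 to 2 when 1 library was left out. The difference of -0.667 genes was -1.17 within 2.5 kb and -1 within 10 kb of the 5′ end. Around any transcript start it was -0.333 within 1 kb, 0 within 2.5 kb and 0.333 within 10 kb. It was -0.167 with −log10 q of at least 5 and -0.833 with lists cut to the same length, and ranged from -1 to 0 with 1 library left out. Genes called for control alone numbered 79 with lists cut to the same length, and 79 to 233 with 1 library left out; those for HA-Bcl-xL alone numbered 218 to 613 and the pro-apoptotic genes for control alone 0 to 1. The windows around any transcript start took in starts of neighbouring genes, and a library left out loosens the rule by construction.

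The limma count of 0 genes became 0 to 3 with 1 library left out (2 without HA-Bcl-xL replicate 2 and 3 without replicate 3, where the lone HA-Bcl-xL library is assumed to vary like the control ones). The replicate numbers were not taken as pairs in the main fit. Deviations of same-numbered libraries from their group means had a Pearson r across 5151 genes of 0.0045 and 0.030. The deviations of the 2 HA-Bcl-xL libraries mirror each other by construction, so these values cannot show whether the numbers are pairs. With the replicate block, 2 genes passed, neither among the 10. PMAIP1, near 0, changed sign to -0.31 with −log10 q of at least 5, to -0.0060 with the pseudocount, was 0.56 with lists of the same length and 0.21 with the replicate block, and ranged from -0.16 to 0.20 with 1 library left out; the cause was not tested. BMF ranged from -1.23 to -0.75. Under settings that kept all libraries, 50 values of the main results kept their call, stayed within 1.5 times or moved by less than the spread between libraries (the difference of 0 among them), 7 moved further and 1 reversed. Between 3 and 2 libraries no exact p can fall below 0.2, and peaks on 5 fragments lie near the smallest that were called.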
